A study of Homo sapiens with 6 samples.

Results

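The GET pathway (also called the TRC pathway) places tail-anchored proteins, which carry a single membrane segment at their C-terminal end, into the membrane of the endoplasmic reticulum (ER). Because that segment leaves the ribosome only when translation ends, these proteins cannot use the co-translational route of signal recognition particle (SRP) and are inserted afterwards. In the cytosol the cochaperone SGTA binds the new protein, the BAG6, UBL4A and GET4 complex brings SGTA together with the ATPase ASNA1 (newer name GET3), and ASNA1 carries the protein to the receptor formed by WRB (newer name GET1) and CAMLG. Many SNARE proteins of vesicle fusion and several ER enzymes are tail-anchored.

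The 7 genes ASNA1, GET4, WRB, CAMLG, SGTA, UBL4A and BAG6 were taken as the members of this pathway, out of 57773 genes counted, and all 7 passed the filter on low counts that left 22010 genes for testing. ASNA1 entered because it was higher in sgZNF507 against EV in these same libraries, so its values in every comparison that uses the sgZNF507 libraries are given as a description without a test. The other 6 members were added as its partners.

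RNA was sequenced from HEK293 cells, an established line from human embryonic kidney. Edited cells received PX459, a plasmid that expresses Cas9, with guides for 4 target sequences in ZNF146 (group sgZNF146) or 4 in ZNF507 (group sgZNF507). The group EV received an empty vector control plasmid without guides, and the study does not say outright that it was PX459. All 3 groups were selected for 36 h with puromycin and grown out to 2 weeks, with 2 libraries per group. The edited cultures were populations rather than clones, so in bulk RNA a change in every cell and a change in the share of edited cells cannot be told apart. The study describes both the disruption and the sequencing as done in duplicate. In the main fit p-values rest on the spread between duplicates, estimated over all 3 groups with information shared across genes.

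Libraries held between 22724439 and 28524025 counts. ZNF507 was at 47.2 and 48.7 CPM (read counts scaled to one common library size with TMM adjustment) in sgZNF507 and between 71.3 and 75.5 in the other libraries. ZNF146 was at 99.2 and 103 CPM in sgZNF146, 115 and 105 in EV and 88.4 and 101 in sgZNF507, so its transcript level does not separate the sgZNF146 libraries from the rest. By western blot the study reports each protein as essentially undetectable after targeting. It also reports frequent indels at the guide sites of both genes in the RNA reads. All 6 genes listed as expressed in HEK293 were at 60.2 CPM or more. Of 6 markers of other cell types, HBB and INS had 0 counts and 5 stayed at or under 0.321 CPM in every library, while COL1A1, a fibroblast collagen, reached between 57.1 and 74 CPM in all 3 groups.

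ASNA1 (ENSG00000198356) spans 12847953 to 12859137 of chromosome 19 (GRCh37, plus strand), and RefSeq gives it 2 starts. The canonical transcript of 7 exons begins at 12848311, which is the second start. The stretches from 130 bases before each start to 20 bases into the transcript are shown to compare the 2 promoters, with the 8 bases TCACGTGA in capitals. This palindrome holds CACGTG, the E-box of basic helix-loop-helix factors such as USF1 and TFEB.

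ASNA1, first start (chr19:12847790-12847939, GRCh37, plus strand): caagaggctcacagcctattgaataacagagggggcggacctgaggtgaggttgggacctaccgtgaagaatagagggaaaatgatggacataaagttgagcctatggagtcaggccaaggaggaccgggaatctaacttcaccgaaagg
ASNA1, second start (chr19:12848181-12848330, GRCh37, plus strand): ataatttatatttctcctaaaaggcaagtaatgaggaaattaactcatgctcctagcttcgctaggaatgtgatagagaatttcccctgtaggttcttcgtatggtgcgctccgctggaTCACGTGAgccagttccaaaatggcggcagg

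The second promoter of ASNA1 held TCACGTGA once, with its first base 11 bases before the start. The first promoter held neither TCACGTGA nor CACGTG. Among 10 promoters found for 6 of the members (300 bases each, from 250 before to 50 after the start), this was 1 promoter with CACGTG, and the promoters of WRB, CAMLG, SGTA, UBL4A and BAG6 had none. CACGTG occurred in 8.926% and TCACGTGA in 1.553% of 17321 promoters of protein-coding genes tested, searched on both strands, where the longer motif includes the shorter. The motif was chosen with the results of these libraries known, and a match in these letters is a description and shows no binding. No promoter was found for GET4.

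ASNA1, the ATPase that carries tail-anchored proteins, was counted 1184 and 1276 times in EV, 1233 and 1195 times in sgZNF146 and 1471 and 1836 times in sgZNF507. These counts correspond to 47.6 and 46.2 CPM in EV, 48.6 and 47.5 in sgZNF146 and 63.8 and 63.4 in sgZNF507. Both sgZNF507 libraries lay above the other 4, which stayed within a narrow range. The sgZNF507 mean of 63.6 ± 0.322 CPM stood against an EV mean of 46.9 ± 0.995 (SD over 2 libraries for both). In edgeR this was a 1.36-fold difference, or 0.44 on the log2 scale. Against sgZNF146 (48.0 ± 0.769 CPM, SD, n = 2) the log2 fold change of sgZNF507 was 0.40. Under all alternatives tried, leaving out any 1 library included, the value against EV stayed between 0.42 and 0.47.

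**Figure D1:**
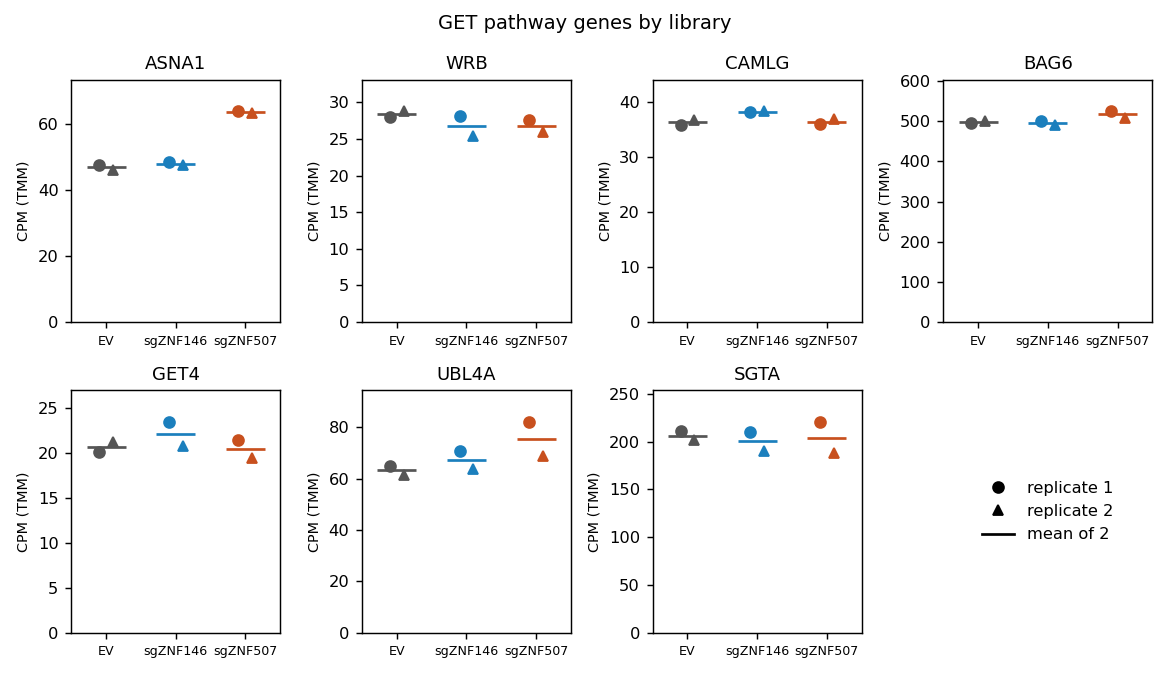
Normalized counts (CPM, linear axes from 0) of the 7 GET pathway genes in the EV, sgZNF146 and sgZNF507 libraries, where circles are replicate 1, triangles are replicate 2 and bars are the mean of 2. ASNA1 sits at 63.8 and 63.4 CPM in sgZNF507 and between 46.2 and 48.6 in the other 4 libraries, while UBL4A is highest in one sgZNF507 library at 82.1 CPM.

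For the receptor genes WRB and CAMLG the differences in sgZNF507 against EV were near 0. WRB, which with CAMLG forms the docking site for ASNA1 in the ER membrane, was at 27.9 and 28.8 CPM in EV, 28.1 and 25.4 in sgZNF146 and 27.5 and 26.0 in sgZNF507. The sgZNF507 libraries lay just under the EV libraries, with a log2 fold change of -0.09 (95% interval -0.28 to 0.11, adjusted p = 1.00 in edgeR, where p-values of the quasi-likelihood test are adjusted over all genes by Benjamini-Hochberg). CAMLG, the calcium-modulating cyclophilin ligand, was at 35.8 and 36.7 CPM in EV, 38.1 and 38.2 in sgZNF146 and 35.9 and 36.8 in sgZNF507. Its EV and sgZNF507 values overlapped, and the log2 fold change was 0.00 (95% interval -0.17 to 0.18, adjusted p = 1.00 in edgeR). Per kilobase of canonical transcript, ASNA1 stood at 2.15 and 2.03 times the mean level of WRB and CAMLG in EV, 2.12 and 2.18 times in sgZNF146 and 2.90 and 2.94 times in sgZNF507. This ratio within a library does not depend on the scaling between libraries, and it was highest in both sgZNF507 libraries. It holds ASNA1, which was chosen for being higher in sgZNF507, so it is a description and no separate evidence.

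Among the BAG6 complex, UBL4A was the member nearest to ASNA1 in direction. UBL4A, a ubiquitin-like protein that links SGTA to the complex, was at 65.1 and 61.5 CPM in EV, 70.9 and 63.8 in sgZNF146 and 82.1 and 68.9 in sgZNF507. The sgZNF507 libraries lay above both EV libraries, but the lower of them was under the higher sgZNF146 library. The log2 fold change against EV was 0.25 (95% interval 0.06 to 0.45), with an unadjusted p of 0.0153 and an adjusted p of 1.00 in edgeR, so it did not pass the threshold. When the fit took replicate numbers as blocks, UBL4A did pass (adjusted p = 0.0244 in edgeR), although no label says that equal numbers mark a shared batch. Leaving out 1 library moved this value, which was 0.12 without sgZNF507 replicate 1 and 0.39 without sgZNF507 replicate 2. Against sgZNF146 the log2 fold change was 0.16 (95% interval -0.03 to 0.36, adjusted p = 1.00 in edgeR).

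BAG6, the scaffold of the complex, was at 496 and 500.2 CPM in EV, 500.0 and 491 in sgZNF146 and 524 and 509 in sgZNF507. Both sgZNF507 libraries were the highest, by a small margin, and the log2 fold change against EV was 0.05 (95% interval -0.07 to 0.18, adjusted p = 1.00 in edgeR). GET4, which holds ASNA1 in the complex, was at 20.1 and 21.2 CPM in EV, 23.4 and 20.8 in sgZNF146 and 21.4 and 19.4 in sgZNF507. The groups overlapped, with a log2 fold change of -0.02 (95% interval -0.24 to 0.21, adjusted p = 1.00 in edgeR) in sgZNF507 against EV.

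SGTA, the cochaperone that first binds tail-anchored proteins, was at 211 and 201 CPM in EV, 211 and 190 in sgZNF146 and 220 and 188 in sgZNF507. In the sgZNF507 group 1 library was the highest and the other the lowest of all 6, so the spread within the group exceeded the difference between groups. The log2 fold change against EV was -0.01 (95% interval -0.19 to 0.16, adjusted p = 1.00 in edgeR).

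In sgZNF507 against EV, 0 of the 6 members other than ASNA1 passed the threshold of 0.05 after adjustment, against 0.182% of all genes tested (edgeR). With the replicate block the count was 1 of 6, UBL4A, where 121 of all 22010 genes tested passed. Before adjustment and without the block 1 of the 6, again UBL4A, had a p under 0.05, where the share of all genes was 3.39%. DESeq2 gave the same counts, 0 after adjustment and 1 before it. The groups did not overlap in 3 of the 6 (WRB, UBL4A and BAG6), where 29.3% of all genes tested did so. The intervals given for each partner limit how large a change of the partners could be, and they do not show that the partners were equal between the groups.

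**Figure D2:**
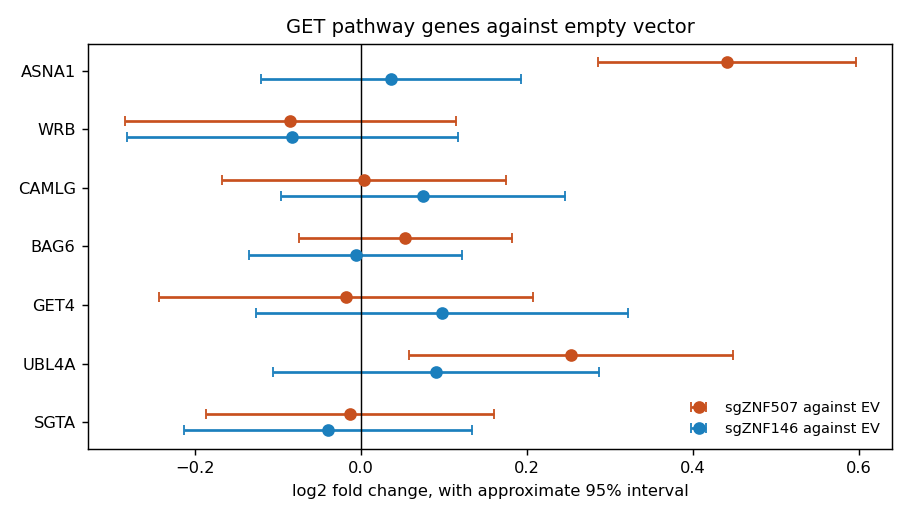
Log2 fold changes of the 7 GET pathway genes in sgZNF507 against EV and in sgZNF146 against EV, with approximate 95% intervals from the edgeR fit. The sgZNF507 value is 0.44 for ASNA1 and 0.25 for UBL4A, and the intervals of the other 5 genes span 0 in both comparisons. The sgZNF507 interval drawn for ASNA1 is no test, since ASNA1 was chosen for being higher in this comparison.

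In sgZNF146 against EV, all 7 members could be tested, since no member was chosen from this comparison, although it shares its EV libraries with the one that chose ASNA1. ASNA1 was at 48.0 ± 0.769 CPM in sgZNF146 (SD, n = 2), and its log2 fold change was 0.04 (95% interval -0.12 to 0.19, adjusted p = 1.00 in edgeR). Of the 7 members, 0 passed the threshold, as did 0% of all genes, and 0 had an unadjusted p under 0.05, against 2.43% of all genes. DESeq2 also called 0 of 7, with 0 at an unadjusted p under 0.05. The groups did not overlap for 1 of the 7, CAMLG, where 28.6% of all genes did not overlap. The values ranged from -0.08 for WRB to 0.10 for GET4, which is at the low end of the pathway's levels and has the widest interval (-0.13 to 0.32). UBL4A had a log2 fold change of 0.09 (95% interval -0.11 to 0.29).

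In sgZNF507 against sgZNF146, 0 of the 6 members other than ASNA1 passed the threshold (edgeR), against 0.173% of all genes, and 0 had an unadjusted p under 0.05, against 4.03%. DESeq2 gave 0 for both counts. Groups did not overlap for 2 of the 6, CAMLG and BAG6, against 32.1% of all genes. The largest difference was that of UBL4A at 0.16, and GET4 was lowest at -0.12 (95% interval -0.34 to 0.11).

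To set the members against each other, CPM was divided by the length of each canonical transcript. By this level BAG6 was highest, with a median over the 6 libraries of 130 CPM per kilobase (127.9 to 136). SGTA followed at 92.3 (84.2 to 98.8), then ASNA1 at 37.7 (36.2 to 50.1), UBL4A at 28.8 (26.4 to 35.3), WRB at 18.1 (16.6 to 18.7), CAMLG at 16.9 (16.5 to 17.6) and GET4 at 10.04 (9.30 to 11.2). The ranges of WRB and CAMLG, the 2 subunits of the receptor, overlapped, and no other neighbors in this order did. The cytosolic members other than GET4 were above both receptor genes. The levels of GET4, WRB and BAG6 may also be affected by exon bases shared with other genes, given below. The order depends on the length used. Per kilobase of all annotated exons SGTA was under ASNA1 at 33.1 and UBL4A at 26.0, and WRB at 3.21 was the lowest.

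The 7 genes lie on 6 chromosomes, so they share no position. ASNA1 and SGTA (chromosome 19, 2754713 to 2783360, minus strand) are both on chromosome 19. In GRCh37, WRB lies on chromosome 21 (40749624 to 40800454), CAMLG on chromosome 5 (134074185 to 134087847) and GET4 on chromosome 7 (916191 to 936073), all on the plus strand, and BAG6 on chromosome 6 (31606805 to 31620482) and UBL4A on chromosome X (153712056 to 153714954), both on the minus strand. By the GENCODE annotation GET4 shares 1842 exon bases with SUN1 and WRB shares 1188 with GET1-SH3BGR, both on the same strand. Some of their reads may therefore not be separated. On the opposite strand GET4 shares 2592 exon bases with a long noncoding RNA gene, WRB 990 with LCA5L and BAG6 136 with APOM. Reads from these stretches can be told apart only if counting used the strand, which is not given. ASNA1, CAMLG, SGTA and UBL4A share no exon bases with another annotated gene. The study names Ensembl models rather than GENCODE, so overlaps in the models counted may differ.

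The genes next to ASNA1 had small differences. TRIR, 2454 bp before it, had a log2 fold change of -0.02 (95% interval -0.17 to 0.12) in sgZNF507 against EV, and HOOK2, a cytoskeletal linker 14679 bp after it, had -0.08 (95% interval -0.26 to 0.10). The neighbors of UBL4A, LAGE3 and SLC10A3, had values of 0.04 and -0.11. Of the 14 nearest tested protein-coding genes on either side of the 7 members, 0 passed the threshold (edgeR) and 0 had an unadjusted p under 0.05, with values between -0.11 and 0.18, and DESeq2 gave 0 for both counts. Sides were set by gene midpoints, and SUN1, LCA5L and APOM overlap their member (GET4, WRB and BAG6) rather than flank it. The shares over all genes were 0.182% and 3.39%, so a count of 0 among 14 genes is near the background.

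The pattern of ASNA1 over the 6 libraries was compared with those of 14743 other protein-coding genes by the root mean square difference of log2 CPM after centering each gene on its mean. The 5 closest genes were SMCR8, a partner of C9orf72 (0.03), ATP6V0D1, a subunit of the lysosomal proton pump (0.04), IGF2R, the receptor that sorts mannose 6-phosphate tagged enzymes to lysosomes (0.04), RGS3, a regulator of G protein signaling (0.05), and VAC14, the scaffold of the PIKfyve complex on endosomes (0.05). Their log2 fold changes in sgZNF507 against EV lay between 0.39 and 0.52, given without a test because the measure of likeness includes this difference. RGS3 was at only 2.39 to 3.60 CPM. By the same measure UBL4A ranked 193 (0.13) and BAG6 1593 (0.17), and SGTA, CAMLG, WRB and GET4 ranked between 5734 and 8977.

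**Figure D3:**
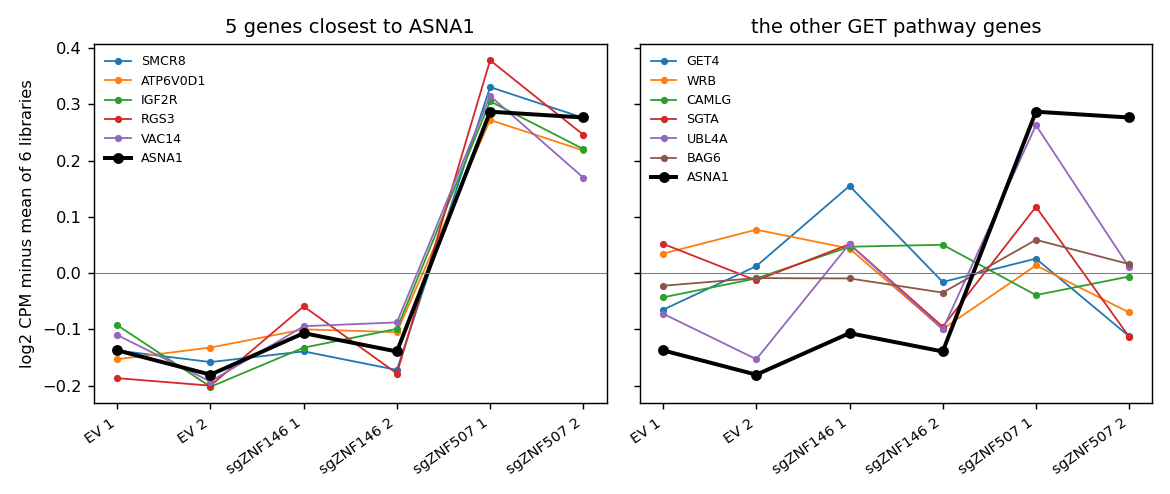
Log2 CPM minus each gene's mean over the 6 libraries, for ASNA1 (black) with the 5 closest protein-coding genes at left and with the other 6 GET pathway genes at right, where lines only join the values of 1 gene. The 5 closest genes are high in both sgZNF507 libraries as ASNA1 is, and at right UBL4A is highest in sgZNF507 replicate 1.

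Of these 5 genes, ATP6V0D1 and IGF2R held TCACGTGA in their promoters, with 1 and 3 copies. VAC14 held only the shorter CACGTG, as did 1 of the 5 promoters of RGS3, and SMCR8 held neither. Over tested protein-coding genes with a promoter, 12.202% held CACGTG and 2.103% held TCACGTGA. The 5 genes were picked by their values in the libraries that chose ASNA1, so these matches are a description with no test. The stretches with the copies are shown for comparison with the second promoter of ASNA1, each 5′ to 3′ along its gene and with TCACGTGA in capitals.

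ATP6V0D1 (chr16:67515091-67515140, GRCh37, minus strand): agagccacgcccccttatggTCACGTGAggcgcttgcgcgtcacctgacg
IGF2R (chr6:160389969-160390103, GRCh37, plus strand): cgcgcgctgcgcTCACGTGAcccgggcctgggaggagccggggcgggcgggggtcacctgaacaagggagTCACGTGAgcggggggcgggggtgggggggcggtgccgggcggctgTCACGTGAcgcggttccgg

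The promoter of UBL4A held no CACGTG. Its stretch is shown because UBL4A came nearest to ASNA1 among the members. The 300 bases from RefSeq (GRCh38.p14) had no exact match near the gene in GRCh37, so no position is given.

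UBL4A (minus strand of chromosome X): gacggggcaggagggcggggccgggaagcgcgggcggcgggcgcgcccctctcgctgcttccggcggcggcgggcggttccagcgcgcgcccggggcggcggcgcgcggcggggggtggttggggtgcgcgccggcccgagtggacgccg

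Genes that work beside the GET pathway were described from 5 lists of 74 genes, of which 73 were tested and SEC22B had no matching identifier. In sgZNF507 against EV, 0 of 73 passed the threshold (edgeR), with 2 at an unadjusted p under 0.05, and DESeq2 gave the same counts. Over all genes the shares were 0.182% and 3.39%, so the lists were near the background. In sgZNF146 against EV both tools called 0, with 0 at an unadjusted p under 0.05, where the shares over all genes were 0% and 2.43%. The median over all genes tested was 0.00 in both comparisons.

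Of the 12 partners of BAG6 and SGTA in quality control, among them the ubiquitin ligase RNF126 and the ubiquilins, 6 were positive and 6 negative in sgZNF507, with a median of 0.00. HSP90AA1, the stress-inducible cytosolic Hsp90, had a log2 fold change of -0.19 (unadjusted p = 0.0148, adjusted p = 1.00 in edgeR) and SGTB, the paralog of SGTA, had -0.12. The 2 ATPases that pull misplaced tail-anchored proteins out of membranes, ATAD1 at mitochondria and ATP13A1 at the ER, had values of -0.09 and -0.01.

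The ER membrane protein complex also inserts tail-anchored proteins, those with a less hydrophobic segment. Its 10 subunits had a median of 0.00, with 5 positive and 5 negative, and the values furthest from 0 were -0.20 for EMC7 and -0.12 for MMGT1. Over the 14 genes of the SRP and Sec61 route the median was -0.05, with 3 positive and 11 negative. SRP14, the Alu-binding subunit of SRP, was at 68.2 CPM on average in sgZNF507 and 79.2 in EV, a log2 fold change of -0.22 (unadjusted p = 0.00797, adjusted p = 1.00 in edgeR), and SEC62, a partner of the Sec61 channel, had -0.18.

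Tail-anchored proteins of the ER and secretory pathway, mainly SNAREs, were described by 35 tested genes. Which of them are inserted by the GET pathway in these cells was not tested. In sgZNF507 against EV 17 were positive and 18 negative, with a median of 0.00 and a range from -0.25 to 0.18. BET1, a SNARE of ER to Golgi transport, had the lowest value at -0.25 (adjusted p = 1.00 in edgeR) at a low level of 7.81 CPM in sgZNF507 and 9.36 in EV. CYB5A, cytochrome b5 of the ER, had -0.20. In sgZNF146 against EV the median was -0.02, with 14 positive and 21 negative.

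**Figure D4:**
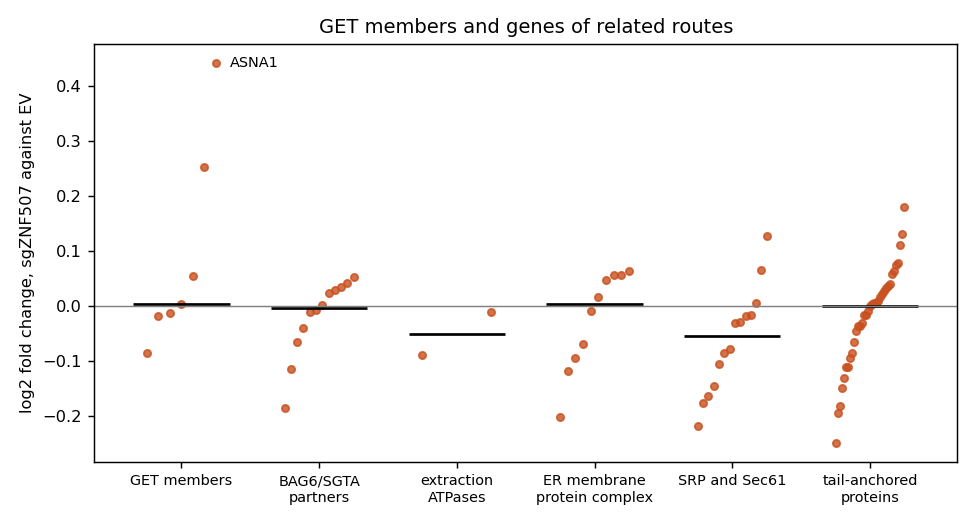
Log2 fold changes in sgZNF507 against EV for the 7 GET members and the 5 lists of related genes, where each point is 1 gene, sorted within its list, and bars are medians. Medians lie between -0.05 and 0.00, and ASNA1 at 0.44 is the highest point.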

How the data were processed

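Total RNA of 6 libraries was sequenced after ribosomal depletion. The authors clipped reads with the Fastx Toolkit, removed ribosomal reads with Bowtie, mapped the rest to hg19 with TopHat2 using Ensembl models (version 82), and deposited raw counts per gene from featureCounts, with no pooling of replicates. Whether featureCounts used the strand is not given in the sources used here, and without molecular identifiers PCR duplicates count as reads. Columns were matched to libraries by the sample descriptions.

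Counts were fitted with edgeR 4.0.16 (R 4.3.3), with filterByExpr, TMM and the quasi-likelihood test on all 6 libraries in one fit without a replicate block, and Benjamini-Hochberg adjustment over 22010 genes at a threshold of 0.05. The 95% intervals rest on standard errors taken from the F statistic and are approximate. Log2 CPM for patterns used a prior count of 2. Symbols, positions and transcript lengths came from GENCODE lifted to GRCh37, which matched 96.1% of identifiers, and promoters from RefSeq. DESeq2 1.42.0, other normalizations and filters, 4 libraries, the replicate number as a block and leaving out each library were alternatives. The scripts were tested on simulated data. Figures used matplotlib 3.10.9.

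The members and lists were chosen with earlier results of these data known. Named are the members, the targets, the nearest tested protein-coding genes, the 5 closest patterns to ASNA1 and, in each list, genes past the threshold or otherwise the 2 furthest from 0 in sgZNF507 against EV.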

Additional observations from a re-analysis of the deposited data

How the results depend on the processing

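The log2 fold changes of the 7 members in 3 comparisons were recomputed under 13 alternatives, which gave 273 values. Of these, 255 kept their direction and side of the threshold (or, for ASNA1 where it was not tested, stayed within the spread of replicates), 17 changed sign and 1 passed the threshold. Leaving out 1 of 2 libraries moves a group mean by less than their SD. For ASNA1 these values therefore stayed within the spread almost by design, and they are no separate sign of stability. Replicates share a number that no label ties to a batch, and there are 2 numbers. The deviations of replicate 1 from the group mean correlated across genes with r = 0.138 (EV and sgZNF146), 0.176 (EV and sgZNF507) and 0.145 (sgZNF146 and sgZNF507). With the replicate number as a block, 1 of 6 members other than ASNA1 passed in sgZNF507 against EV, UBL4A (log2 fold change 0.25, adjusted p = 0.0244 in edgeR), whose adjusted p lay between 0.233 and 1.00 under the other alternatives. The block also gave 1 of 73 list genes in sgZNF146 against EV, HMOX1, named after its value was seen (log2 fold change -0.30 and adjusted p = 0.00516 with the block, -0.29 and 1.00 without it, in edgeR). Over all genes, the block gave 121 calls in place of 40 in sgZNF507 against EV, 33 in place of 0 in sgZNF146 against EV and 196 in place of 38 between the edited groups, and the lowest counts under any alternative were 12, 0 and 13. Signs changed only where the main value lay between -0.04 and 0.03. The changed values themselves reached 0.11, for SGTA in sgZNF507 against EV without sgZNF507 replicate 2. WRB in sgZNF507 against sgZNF146 became 0.0009 with RLE size factors, 0.0066 with no filter, 0.0003 with at least 10 counts in every library and 0.0021 in DESeq2. With 1 library left out, where a lone library is assumed to vary like the other groups, this value ranged from -0.0712 to 0.0756. In sgZNF507 against EV the range was -0.0889 to 0.0627 for GET4, -0.009 to 0.0184 for CAMLG and -0.13 to 0.11 for SGTA. SGTA ranged from -0.12 to 0.0305 in sgZNF146 against EV and from -0.0947 to 0.15 in sgZNF507 against sgZNF146, and BAG6 from -0.0195 to 0.005 in sgZNF146 against EV. The summed CPM of the 7 members in sgZNF507 moved by less than 1 SD with the other normalizations. The cause of these changes was not tested. With 2 libraries per group, the intervals above limit what can be seen of small differences.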

Other observations

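The E-box seen in the second promoter of ASNA1 was also counted in the promoters of the other genes that passed the threshold in sgZNF507 against EV, after the values of ASNA1 were seen. Of 20 protein-coding genes called higher besides ASNA1 that have a RefSeq promoter, 16 (80.0%) held CACGTG and 9 (45.0%) held TCACGTGA in at least 1 promoter. Over 11793 tested protein-coding genes with a promoter the shares were 12.202% and 2.103%. The 9 genes were ATP6V0D1, BAX, CTSA, GNPTG, IGF2R, LAMP1, NAGPA, SLC35B2 and VPS11. Among 5 genes called lower with a promoter, 4 held CACGTG and 2 held TCACGTGA, WDR81 and ZNF507. ZNF507 is the target of the guides, so its lower level says nothing about the motif. Besides it, GPRASP3, SNX8 and WDR81 held CACGTG and WDR81 held TCACGTGA, so the motif was found with both directions. The genes were selected by their values, and these shares are a description with no test. Whether a factor binds these promoters in these cells was not tested.

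The share of ASNA1 in the summed CPM of the 7 members was 5.27% and 5.15% in EV, 5.28% and 5.41% in sgZNF146 and 6.54% and 6.96% in sgZNF507. The sum itself was 899 ± 4.77 CPM in EV, 899 ± 29.9 in sgZNF146 and 943 ± 45.5 in sgZNF507 (SD, n = 2 each), and both sgZNF507 libraries (976 and 911) lay above both EV libraries (903 and 896). This sum holds ASNA1, which was chosen for being higher in sgZNF507. Without it the sums were 855 and 849.7 CPM in EV, 871 and 829.8 in sgZNF146 and 912 and 848 in sgZNF507, and the 3 groups overlapped.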
